A study of Mus musculus with 4 samples.

Results

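The enzymes that add methyl groups to histone lysines and the enzymes that remove them were followed at the level of their transcripts in mouse lung smooth muscle cells with and without inactivation of *Tet3*. The set comprised 39 genes, 25 methyltransferases or related SET-domain genes and 14 demethylases, taken by symbol from the table of gene values. All 39 were found among its 21462 genes, and all 39 were among the 16659 genes tested, which had a mean value of at least 10 over the 4 libraries. The members were chosen with earlier results of these data known. Some related genes with low values were outside the set, such as *Smyd1* at 2 to 10 and *Kdm4d* at 6 to 9 normalized counts.

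RNA was sequenced from 2 control and 2 Tet3 mutant libraries, described by the study as independent animals. All animals were C57BL/6 mice, and by the study's methods tamoxifen was given to adults. Mutants carried *Tet3* fl/fl alleles and a tamoxifen-inducible CreERT2 under the promoter of *Acta2*, the gene for smooth muscle α-actin, so that deletion was directed to cells in which that promoter was active at the time of treatment. Controls carried the Cre and/or a tdTomato reporter at the ROSA26 locus without the floxed allele, and the reporter marked the cells for sorting in both groups. Lungs were perfused and digested, CD45+ and Ter-119+ blood cells were depleted, and viable tdTomato+ cells were sorted. Values are the authors' normalized counts. Fold changes are Tet3 mutant minus control on log2(value + 1), with the standard error (SE) and 95% interval of limma, which borrows the spread between libraries across all genes.

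Methylated lysines on histone H3 mark different parts of genes, and each mark has its own writers and erasers. SET-domain enzymes transfer the methyl group from S-adenosylmethionine, and DOT1L does so without a SET domain. Removal is carried out by flavin-dependent LSD enzymes or by JmjC dioxygenases, which use iron and 2-oxoglutarate as the TET enzymes do. H3K4 methylation marks promoters and enhancers, H3K9 and H3K27 methylation mark silent chromatin, and H3K36me3 is laid down along transcribed gene bodies by SETD2, which travels with elongating RNA polymerase II. The study is concerned with H3K36me3 and SETD2 in cells lacking TET3, which makes the amount of *Setd2* mRNA, and of mRNA for the other writers and erasers, a question that these libraries can address.

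*Tet3* itself had normalized counts of 1847 and 1926 in the controls (replicates 1 and 2) against 1534 and 1444 in the mutants (replicates 1 and 2). Both mutants were lower, with a log2 fold change of -0.34 (SE 0.10, limma adjusted p 0.681). Reads assigned to genes were estimated at 6.32 M in the shallowest and 7.56 M in the deepest library. Control replicate 2 stood apart from the other libraries, with 2 normalized counts of the X-inactivation transcript *Xist* against 5214 to 6781 in the others and 542 of the Y-linked *Kdm5d* against at most 1. These are the transcripts of a male in control replicate 2 and of females in the other 3 libraries. The labels do not give sex, but the controls thus appear to mix sexes whereas both mutants appear female, so sex and genotype are not balanced. Values without control replicate 2 are printed beside several members that it moved. All 8 smooth muscle markers examined were above 0 in every library, with means per kb of exon from 44.9 for *Cnn1* to 403.8 for *Acta2*. Markers of other lung cells were also present in every library, with mean values per kb of 471.99 for *Pdgfra* of fibroblasts, 315.67 for *Pecam1* of endothelium, 909.82 for *Sftpc* of alveolar type 2 cells and 274.26 for *Cd68* of macrophages. The summed smooth muscle markers were 3795 and 5544 in controls against 6319 and 6111 in mutants, with 8 of 8 fold changes above 0, and the summed alveolar type 2 markers were 6545 and 8902 in controls against 5024 and 6009 in mutants, with 0 of 4 above 0. Macrophage markers summed to 5758 and 5542 in controls against 6424 and 7028 in mutants (5 of 6 above 0), and ciliated cell markers to 612 and 713 against 1189 and 912 (4 of 4 above 0). T cell markers summed to 494 and 152 in controls against 548 and 542 in mutants, and neutrophil markers to 274 and 171 against 406 and 322. The part of these differences in the values below was not tested, and in bulk RNA fewer cells of a type and less RNA per cell cannot be told apart.

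No histone lysine methyltransferase or demethylase passed the threshold between Tet3 mutant and control libraries. Of the 39 members 0 had a limma adjusted p under 0.05, as did 0% of all genes tested, and the adjusted p of the members ran from 0.681 to 1.0. At an unadjusted p under 0.05, limma returned 1 member, the H3K27 demethylase gene *Kdm6b*, against 6.68% of all genes tested (2.85% lower and 3.83% higher in the mutants). This count was 0 with equal library totals and 0 with quantile normalization, where 1151 and 1164 of all genes tested reached that level. Most members nevertheless had a small negative fold change. In 31 of 39 the log2 fold change was below 0, against 51.0% of all genes tested, and the median was -0.11, against -0.0069 for all genes tested. Both mutants lay below both controls in 17 of 39 members, 43.6%, against 19.5% of genes tested, and above both controls in 3, *Ezh2*, *Smyd3* and *Kdm3a*, against 19.6%. The margin was narrow for *Kdm1b*, with 373 normalized counts in control replicate 1 against 372 in mutant replicate 1. Groups did not overlap in either direction in 20 members and 6500 genes tested, or in 16 and 6814 with equal library totals. Below 0 were 25 members with equal library totals and 26 with quantile normalization, beside 43.4% and 47.5% of all genes tested. Equal library totals moved the member median to -0.066 and the median of all genes tested to 0.042, so the gap between them was -0.108 in both fits. With quantile normalization the medians were -0.035 and 0.017, and without mutant replicate 2 the member median was -0.050 against -0.0056 for all genes tested.

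These data bound the size of any change more tightly for the members than for most genes. The 95% interval lay within 1.5-fold of no change in either direction for 29 of 39 members, against 33.8% of all genes tested, and the median SE was 0.118 against 0.221. Exceptions were *Setd1a*, *Kmt2b*, *Kmt2d*, *Suv39h1*, *Suv39h2*, *Ezh2*, *Dot1l*, *Smyd2*, *Kdm4b* and *Kdm6b*. The lowest member was *Suv39h2*, with 15 to 24 normalized counts per library, and the other 38 members had a mean of at least 100.

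**Figure D1:**
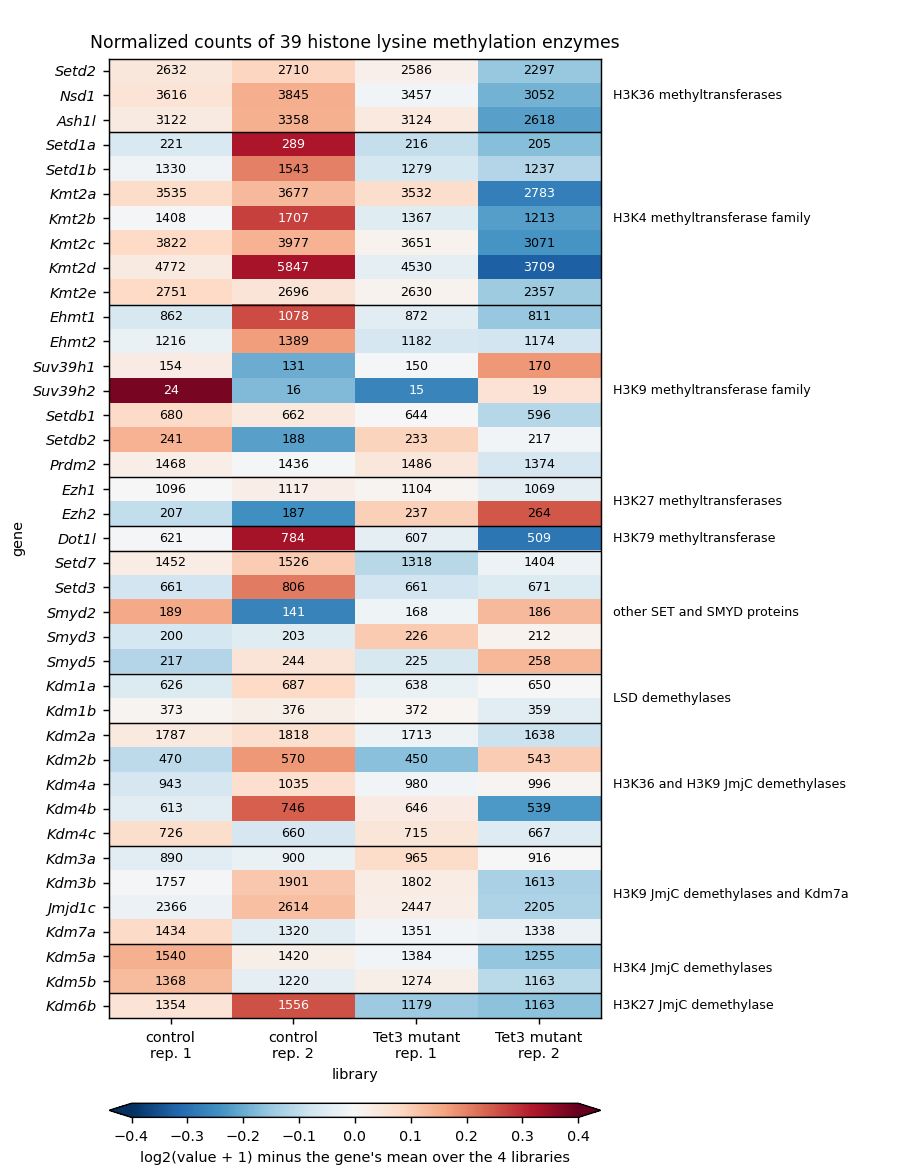
Normalized counts of the 39 members (rows, by role) in the 4 libraries (columns). Numbers are the values and colours show log2(value + 1) minus the mean of that gene over the 4 libraries. Control replicate 2 was highest alone in 24 of 39 members and Tet3 mutant replicate 2 was lowest alone in 24 of 39.

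Levels of the enzymes were compared with each other per kb of exon. Most were well expressed, with 32 of 39 above the median of all genes tested (53.9 normalized counts per kb) and a median percentile of 77.1. *Kmt2e*, *Setd2* and *Kmt2d* were at the top, with means over the 4 libraries of 249.76, 237.7 and 236.54 per kb, and their library ranges overlapped (225.68 to 263.4, 213.59 to 252.0 and 186.09 to 293.36 per kb). *Setd2*, at the 94.1 percentile of genes tested, was close to its H3K36 companions *Ash1l* at 205.92 and *Nsd1* at 199.77 per kb. At the bottom, *Suv39h2* had 4.2 per kb, below *Smyd3* at 22.9, *Suv39h1* at 28.7 and *Ezh2* at 33.5. *Suv39h2* did not overlap its nearest neighbour *Smyd3*, since its range was 3.4014 to 5.4422 per kb and that of *Smyd3* began at 21.777 per kb. *Ezh1*, the catalytic subunit of PRC2 that predominates in resting cells, was at 147.38 per kb above every library of *Ezh2*, the subunit of proliferating cells, whose highest value was 39.533 per kb.

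**Figure D2:**
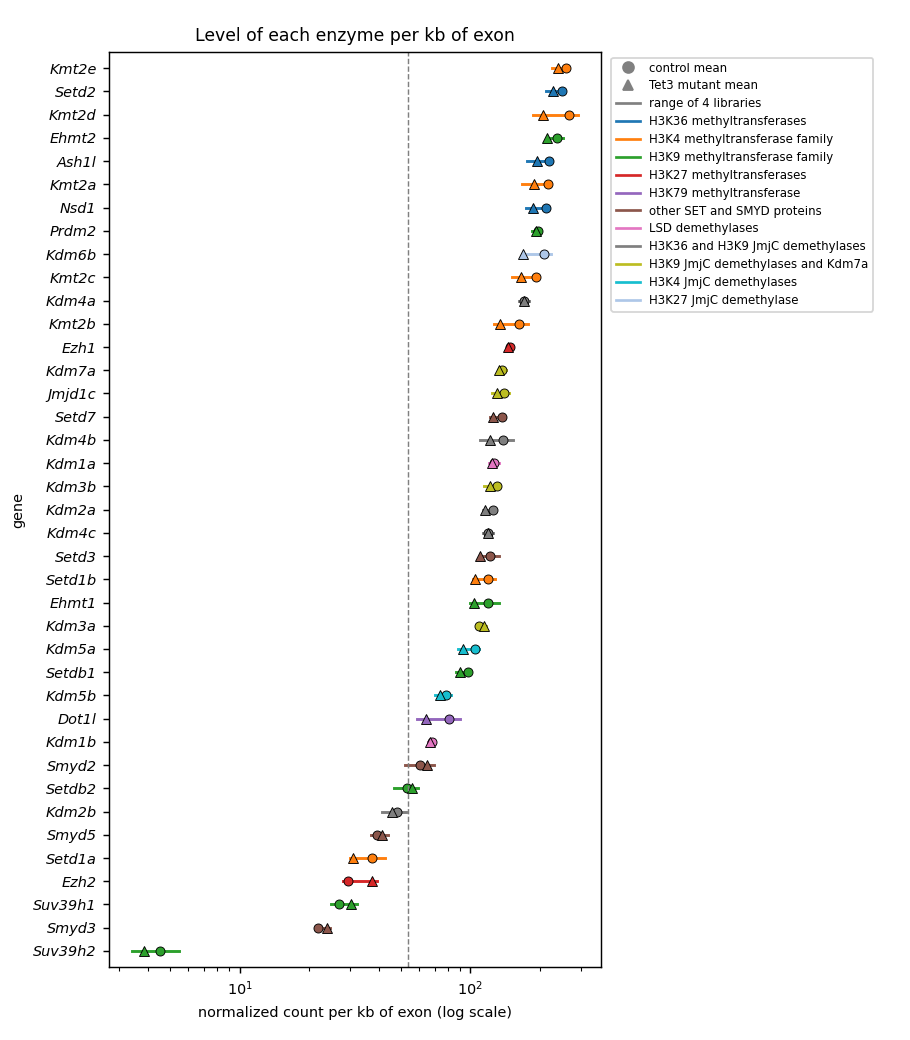
Level of each member in normalized counts per kb of exon on a log axis, ordered by the mean of 4 libraries. Circles are control means, triangles are Tet3 mutant means, bars span the 4 libraries, colours give the role, and the dashed line is the median of all genes tested, 53.9 per kb, which 32 of 39 members exceeded.

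Promoter sequence was a shared feature that did not enter the choice of members. CpG dinucleotides are the sites of DNA methylation and of oxidation by TET enzymes, and KMT2A, KMT2B, KDM2A and KDM2B carry CXXC domains that bind unmethylated CpG. RefSeq promoter windows (GRCm38.p6) matched 27 of the 39 members, and for each the window nearest the 5′ end of the gene in the GENCODE annotation was taken. In the 250 bases before the start, 26 of 27 members held at least 10 CpG, against 37.8% of 32851 windows of all genes, and the median was 24 against 6. *Kdm4c*, with 0 CpG, was the exception, and another window of that gene was not counted. The window taken for *Jmjd1c* lay 30963 bases from that 5′ end. The windows of all genes came from 27025 genes, were not limited to genes tested, and could be several for a gene. A comparison with expressed genes only was not made, so the contrast is not shown to be particular to these enzymes. The GC box GGGCGG, the core bound by Sp factors, occurred on either strand in 19 of 27 members, against 32.7% of all windows, and the ETS core CCGGAA in 6 of 27, against 12%. The GC box contains a CpG, so both counts share bases. The windows shown are those of *Setd2* (chr9:110532347-110532596, plus strand, 31 CpG), the H3K36me3 writer, of *Kmt2d* (chr15:98871206-98871455, minus strand, 26 CpG) and *Dot1l* (chr10:80754953-80755202, plus strand, 44 CpG), which had the most negative fold changes, and of *Suv39h1* (chrX:8074761-8075010, minus strand, 11 CpG), which had a positive one. Capitals mark CpG, and each run is read 5′ to 3′ on the strand of the gene.
Setd2: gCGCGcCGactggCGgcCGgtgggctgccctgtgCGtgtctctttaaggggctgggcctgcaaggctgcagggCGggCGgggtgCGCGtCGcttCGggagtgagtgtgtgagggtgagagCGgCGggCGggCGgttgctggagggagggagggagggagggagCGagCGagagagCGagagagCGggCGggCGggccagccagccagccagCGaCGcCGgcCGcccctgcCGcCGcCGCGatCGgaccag
Kmt2d: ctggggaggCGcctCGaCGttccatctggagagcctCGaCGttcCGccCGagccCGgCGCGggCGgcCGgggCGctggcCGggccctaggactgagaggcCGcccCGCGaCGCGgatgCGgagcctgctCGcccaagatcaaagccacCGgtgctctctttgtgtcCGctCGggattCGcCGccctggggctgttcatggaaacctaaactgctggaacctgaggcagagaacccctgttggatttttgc
Dot1l: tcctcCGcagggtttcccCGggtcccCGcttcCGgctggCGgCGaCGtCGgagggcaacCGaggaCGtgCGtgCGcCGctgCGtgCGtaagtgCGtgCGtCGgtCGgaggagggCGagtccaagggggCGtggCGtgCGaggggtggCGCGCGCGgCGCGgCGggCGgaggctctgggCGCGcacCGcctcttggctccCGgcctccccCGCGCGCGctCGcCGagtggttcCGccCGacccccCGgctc
Suv39h1: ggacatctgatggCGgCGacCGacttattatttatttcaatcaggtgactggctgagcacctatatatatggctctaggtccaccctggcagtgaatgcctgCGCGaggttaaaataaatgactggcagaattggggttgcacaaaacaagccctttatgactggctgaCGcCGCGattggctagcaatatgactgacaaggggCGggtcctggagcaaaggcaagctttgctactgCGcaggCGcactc
The *Setd2*, *Kmt2d* and *Dot1l* windows are dense in CpG over most of their length, but that of *Kmt2d* has none next to the start. CpG in the *Suv39h1* window are few, at a GC content of 51.6% against 76.0% for *Setd2*. Other members with positive fold changes varied, with 34 CpG for *Smyd2*, 24 for *Setdb2*, 23 for *Ezh2*, 20 for *Kdm3a*, 12 for *Kdm4a* and 10 for *Smyd5*. *Smyd3* had no window. Members with negative fold changes varied as well, from 0 CpG for *Kdm4c*, 13 for *Setdb1* and *Kdm5b* and 14 for *Ezh1* to 56 for *Kdm7a*. Whether CpG number and fold change go together was not tested. DNA methylation at these sites was not analysed here.

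The 3 H3K36 methyltransferase genes had negative fold changes, and none passed the test. *Setd2* (ENSMUSG00000044791, GRCm38 chromosome 9, 110532597 to 110618633, plus strand, with 10.754 kb of exon), which encodes the enzyme for H3K36 trimethylation, had normalized counts of 2632 and 2710 in the controls (replicates 1 and 2) against 2586 and 2297 in the mutants (replicates 1 and 2). Mutant replicate 1 was only just below the controls, and mutant replicate 2 set most of the difference. Group means were 2671 ± 55.2 in controls and 2441.5 ± 204 in mutants (SD, n = 2 each). The log2 fold change of *Setd2* was -0.13 (SE 0.11, 95% interval -0.41 to 0.15, limma adjusted p 0.745), so that *Setd2* mRNA in mutants lay between 0.752 and 1.11 of the control level by this interval. The value was -0.034 with quantile normalization, -0.084 with equal library totals and -0.047 without mutant replicate 2.

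*Nsd1* (chromosome 13, 55209782 to 55318325), which encodes an enzyme for H3K36 mono- and dimethylation, had normalized counts of 3616 and 3845 in controls against 3457 and 3052 in mutants. Its groups did not overlap, and its log2 fold change was -0.20 (SE 0.11, limma adjusted p 0.69). *Ash1l* (chromosome 3, 88950622 to 89079375), a Trithorax-group H3K36 methyltransferase gene, had 3122 and 3358 in controls against 3124 and 2618 in mutants. Here mutant replicate 1 overlapped the controls, and the log2 fold change was -0.18 (SE 0.13, limma adjusted p 0.726). Without mutant replicate 2 the median of the 3 genes was -0.052 in place of -0.18.

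The other genes of the NSD family and the readers of the mark were examined with them. *Nsd2* had normalized counts of 793 and 1033 in controls against 836 and 877 in mutants, and *Nsd3* had 1749 and 1634 in controls against 1670 and 1532 in mutants, with log2 fold changes of -0.08 for each and limma adjusted p of 0.902 and 0.848. The *Nsd2* value was 0.11 without control replicate 2. Among 10 genes for H3K36 readers and partners of SETD2, 7 were below 0, against 51.0% of all genes tested, with a median log2 fold change of -0.10. An unadjusted limma p under 0.05 was reached by 0 of the 10, against 6.68% of all genes tested. The 10 included *Iws1* and *Supt6*, whose products link SETD2 to the elongating polymerase, at 0.04 and -0.07 (limma adjusted p 0.952 and 0.874). *Psip1*, which encodes the H3K36 methyl reader LEDGF and was singled out after its values were seen, had normalized counts of 622 and 605 in controls against 731 and 739 in mutants. The mutants were both higher, at a log2 fold change of 0.26 (SE 0.11, limma adjusted p 0.681). *Dnmt3a* and *Dnmt3b*, DNA methyltransferases with PWWP domains that read H3K36 methylation, were at -0.16 and -0.12 (limma adjusted p 0.718 and 0.905).

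In the H3K4 family both mutants lay below both controls for all 7 genes, *Setd1a*, *Setd1b* and *Kmt2a* to *Kmt2e*. Among all genes tested this share was 19.5%. For *Kmt2a* the groups were barely apart, with 3532 normalized counts in mutant replicate 1 against 3535 in control replicate 1. The median log2 fold change of the family was -0.22. This median was -0.126 with quantile normalization, -0.144 without control replicate 2 and -0.344 without mutant replicate 1. None passed the adjusted threshold, with limma adjusted p from 0.681 to 0.745. KMT2C and KMT2D place H3K4 monomethylation at enhancers, KMT2A and KMT2B act at promoters of developmental genes, SETD1A and SETD1B supply most promoter trimethylation, and KMT2E belongs to the family by sequence but lacks clear methyltransferase activity. The most negative of all members was *Kmt2d* (chromosome 15, 98831669 to 98871204), with normalized counts of 4772 and 5847 in controls against 4530 and 3709 in mutants. Control replicate 1 and mutant replicate 1 were close, and the gap came from the other pair of libraries. Its log2 fold change was -0.37 (SE 0.16, 95% interval -0.78 to 0.048, limma adjusted p 0.681). For the other 6 the log2 fold change lay between -0.27 (*Kmt2b*) and -0.13 (*Kmt2e*). Without control replicate 2 the value of *Kmt2d* was -0.219, that of *Kmt2b* -0.129, that of *Setd1b* -0.080 in place of -0.19, and that of *Setd1a* -0.070. Without mutant replicate 2 that of *Kmt2a* was -0.030 in place of -0.20 and that of *Kmt2c* -0.095 in place of -0.22. Mutant replicate 2 was the lowest library for all 7 genes, and control replicate 2 was the highest for all except *Kmt2e*. The value of *Setd1a*, -0.26 (SE 0.19), is uncertain, since 52.3% of its exon bases overlap exons of other annotated genes and reads shared between genes were not counted.

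Subunits that work with these enzymes were examined beside them. Of 10 H3K4 complex subunits in the table, 0 had an unadjusted p under 0.05, 7 were below 0 and the median log2 fold change was -0.09. *Wdr5*, the core subunit shared by the family, had normalized counts of 326 and 309 in controls against 339 and 360 in mutants, a log2 fold change of 0.14 (SE 0.13, limma adjusted p 0.779). *Ncoa6* and *Paxip1*, for subunits of the KMT2C and KMT2D complexes, had values of -0.17 and -0.20 (limma adjusted p 0.715 and 0.729).

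Among the 7 genes of the H3K9 family 5 were below 0, against 51.0% of all genes tested. The median of -0.11 rested on single libraries, at -0.0071 without control replicate 1, -0.046 without control replicate 2 and -0.059 without mutant replicate 2. *Ehmt1* and *Ehmt2*, which encode the partner enzymes GLP and G9a for H3K9 dimethylation, had log2 fold changes of -0.20 (SE 0.15) and -0.14 (SE 0.11), with limma adjusted p of 0.728 and 0.742. Without control replicate 2 these were -0.036 and -0.046. *Setdb1*, for the enzyme recruited by TRIM28 to silence retroelements, was at -0.11. *Prdm2* was at -0.02 and at 0.03 with equal library totals. The exceptions were *Suv39h1* (chromosome X, 8061171 to 8074760) and *Setdb2*. *Suv39h1*, which encodes the H3K9 trimethylase of pericentric heterochromatin, had normalized counts of 154 and 131 in controls against 150 and 170 in mutants. Its groups overlapped, at a log2 fold change of 0.17 (SE 0.20, limma adjusted p 0.823), or 0.052 without control replicate 2, and 14.6% of its exon bases lie in exons of a gene on the other strand. *Setdb2* was at 0.08 and turned to -0.10 without control replicate 2. The low-count paralog *Suv39h2*, at 24 and 16 in controls against 15 and 19 in mutants, had the widest 95% interval of the members, from 0.403 to 1.87 of the control level. Of 8 partner genes, which code for HP1 proteins and cofactors, 0 had an unadjusted limma p under 0.05, against 6.68% of all genes tested. Their median was -0.07.

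The H3K27 methyltransferase genes had fold changes of opposite sign, a difference that was not tested. *Ezh2* (chromosome 6, 47530139 to 47595341) had normalized counts of 207 and 187 in controls against 237 and 264 in mutants, the most positive value of all members. Both mutants exceeded both controls, with a log2 fold change of 0.34 (SE 0.16, 95% interval -0.068 to 0.758, limma adjusted p 0.681). *Ezh1* lay between 1069 and 1117 normalized counts in all libraries, with a log2 fold change of -0.03 (SE 0.098, limma adjusted p 0.951), or 0.02 with equal library totals. The cell cycle markers examined beside *Ezh2* summed to 2011 and 1775 normalized counts in controls against 1986 and 2554 in mutants, with mutant replicate 2 highest and control replicate 2 lowest, the order of libraries seen for *Ezh2* at both ends. Of the 9 of these markers that were tested, 0 had an unadjusted limma p under 0.05, against 6.68% of all genes tested. The median was 0.30 and 7 were above 0, where 51.0% of all genes tested were below 0. *Pcna*, at -0.27 with both mutants below both controls, and *Cdk1*, at -0.11, went the other way. By Ki67 staining, the study reported no change in the number of proliferating smooth muscle cells. The part of the cell cycle in the *Ezh2* value was not tested. For 9 other PRC2 subunits the median log2 fold change was -0.03, with 0 at an unadjusted limma p under 0.05, against 6.68% of all genes tested. The core subunit genes *Eed* and *Suz12* were at -0.01 and -0.07.

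*Dot1l* (chromosome 10, 80755206 to 80795461), which encodes the H3K79 methyltransferase of transcribed genes, had normalized counts of 621 and 784 in controls against 607 and 509 in mutants. The groups did not overlap, but the first control was close to the first mutant, and the log2 fold change was -0.33 (SE 0.17, 95% interval -0.76 to 0.105, limma adjusted p 0.687). Without control replicate 2 it was -0.16, and without mutant replicate 2 it was -0.20. The remaining SET-domain and SMYD genes varied in sign. *Setd7*, for an H3K4 monomethylase with many non-histone substrates, and *Setd3*, for the actin histidine methyltransferase, were both at -0.13 (limma adjusted p 0.737 and 0.799). *Smyd2* and *Smyd5* were at 0.11 and 0.07, and 30.0% of the exon bases of *Smyd2* lie in exons of a gene on the other strand. Without control replicate 2 *Setd3* was at 0.011 and *Smyd2* at -0.096. *Smyd3* had normalized counts of 200 and 203 in controls against 226 and 212 in mutants, and both mutants were higher, at a log2 fold change of 0.12 (SE 0.15, limma adjusted p 0.841).

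**Figure D3:**
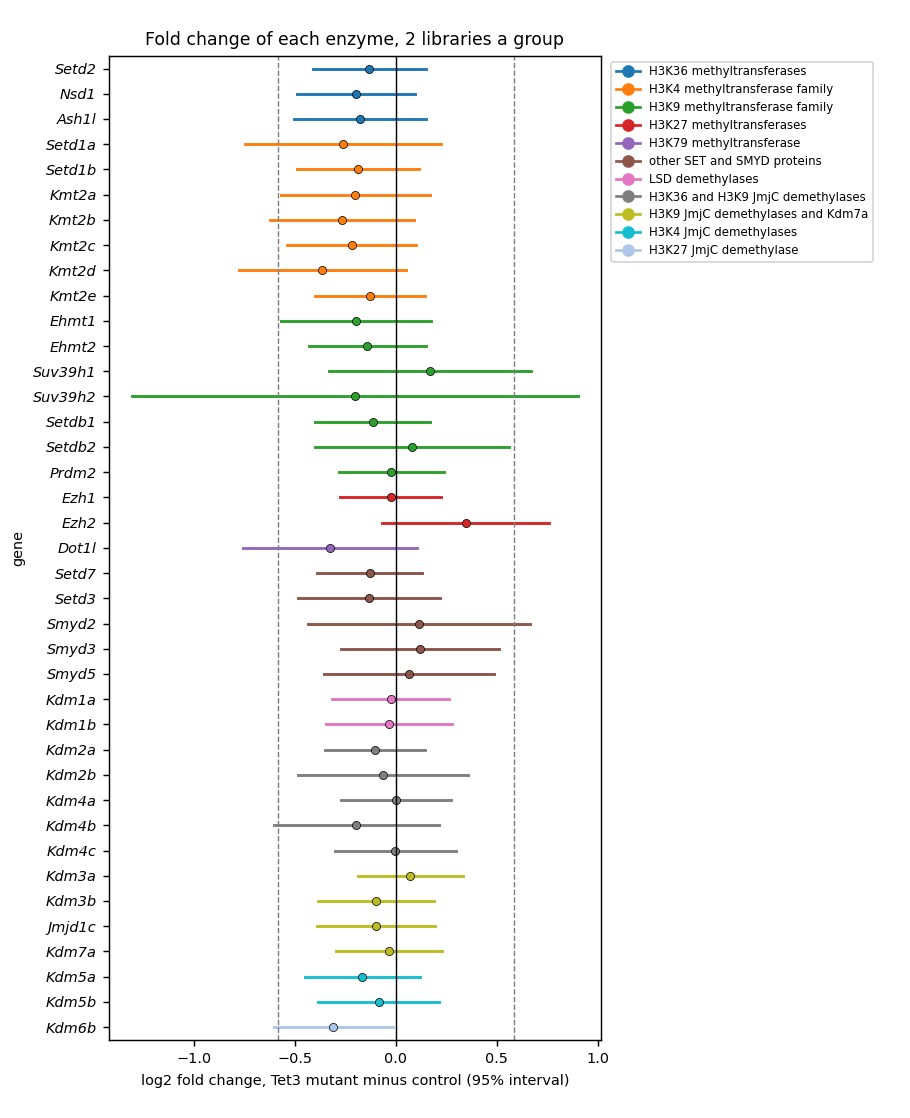
Log2 fold change of each member, Tet3 mutant minus control, with the limma 95% interval (2 libraries a group), coloured by role. Dashed lines mark 1.5-fold either way. Intervals of 29 of 39 members lie between them, and only that of *Kdm6b* lies wholly on one side of 0.

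The median log2 fold change of the demethylases lay closer to 0, at -0.08 over 14 genes against -0.13 over 25 writers and SET-domain genes. The share below 0 was larger among the demethylases, at 85.7% against 76.0%, beside 51.0% of all genes tested. These differences between the groups were not tested. The most negative demethylase was *Kdm6b* (chromosome 11, 69398508 to 69413675), which encodes the inducible H3K27 demethylase JMJD3. It had normalized counts of 1354 and 1556 in controls against 1179 and 1163 in mutants. The mutants were nearly equal and both lay below the controls. The means were 1455 ± 143 and 1171 ± 11.3 (SD, n = 2 each). The log2 fold change of *Kdm6b* was -0.31 (SE 0.12, 95% interval -0.60 to -0.017), which by limma gave an unadjusted p of 0.0419 and an adjusted p of 0.681. It did not pass even the unadjusted level with equal library totals, with quantile normalization, without the mean-variance trend or with a replicate block, where the fold change was -0.261, -0.247, -0.31 and -0.31. It was -0.209 without control replicate 2.

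None of the 5 erasers of H3K36 methylation passed the test, with limma adjusted p from 0.744 to 1.0. *Kdm2a*, for an H3K36 dimethyl demethylase, was at -0.11 and its paralog *Kdm2b*, which also recruits a Polycomb complex to CpG islands, at -0.07. *Kdm4a*, *Kdm4b* and *Kdm4c*, have products that act on H3K9 and H3K36 trimethylation. *Kdm4b* was at -0.20, or -0.055 without control replicate 2 and -0.066 without mutant replicate 2, and *Kdm4c* at -0.0034, or 0.045 with equal library totals. *Kdm4a* had nearly the same mean in both groups, with normalized counts of 943 and 1035 in controls against 980 and 996 in mutants. The 95% interval of *Kdm4a* was -0.274 to 0.274, and that of *Kdm4c* -0.301 to 0.295.

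Of the H3K9 demethylase genes *Kdm3a*, *Kdm3b* and *Jmjd1c*, the first was at 0.07 with both mutants above the controls (890 and 900 against 965 and 916 normalized counts) and the others were at -0.10 each, or -0.043 and -0.027 without control replicate 2. In *Kdm3b* 24.6% of exon bases lie in exons of a gene on the other strand. *Kdm7a*, for a demethylase of H3K9 and H3K27 dimethylation, was at -0.03, or 0.02 with equal library totals. *Kdm5a* and *Kdm5b*, for H3K4 trimethyl demethylases, were at -0.17 and -0.09. The LSD genes *Kdm1a* and *Kdm1b*, for the flavin-dependent H3K4 demethylases, were at -0.03 and -0.04, or 0.02 and 0.01 with equal library totals. Of 6 subunits of the LSD1 complex 0 had an unadjusted limma p under 0.05, against 6.68% of all genes tested. Their median was -0.06. The limma adjusted p of these 8 demethylase genes ran from 0.715 to 0.958.

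Control replicate 2 also stood apart in the demethylases encoded on the sex chromosomes, which were followed as further pathway genes. *Kdm5d* and *Uty*, on the Y chromosome, had 542 and 536 normalized counts in control replicate 2 and at most 1 in any other library. Their X-linked counterparts were lowest in that library. *Kdm6a* had 1068 and 715 in controls against 1070 and 973 in mutants, so that control replicate 2 was at 0.689 of the mean of the other libraries, and *Kdm5c* had 1468 and 1235 in controls against 1462 and 1433 in mutants, a ratio of 0.849. Summed with its Y-linked counterpart, *Kdm6a* was 1.21 times and *Kdm5c* 1.22 times the mean of the others in that library. The log2 fold changes of *Kdm6a* and *Kdm5c*, 0.22 and 0.10 (limma adjusted p 0.777 and 0.826), turned to -0.07 and -0.02 without control replicate 2. The X-linked *Phf8*, at 549 and 590 in controls against 562 and 532 in mutants, did not share this pattern.

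Over all 65 further enzymes, subunits and readers that were tested, 0 passed the adjusted threshold, 1 had an unadjusted p under 0.05, 47 (72.3%) were below 0 and the median log2 fold change was -0.08. The shares over all genes tested were 6.68% at that level and 51.0% below 0. The count of 1 became 2 with equal library totals, 2 with quantile normalization and 0 without the mean-variance trend. In these settings 1151, 1164 and 1138 of all genes tested reached that level. The 1 gene in the main fit was *Mecom*, which encodes the factor EVI1, with normalized counts of 1112 and 1584 in controls against 910 and 842 in mutants. Its log2 fold change was -0.60 (SE 0.19, limma adjusted p 0.681), or -0.345 without control replicate 2. Its relative *Prdm16* had 284 and 737 in controls against 238 and 280 in mutants, where a single control library was far above the rest.

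The order of the libraries and the length and composition of the transcripts were set beside the members' values. Mutant replicate 2 was the lowest library alone for 24 of 39 members, 61.5%, against 20.8% of all genes tested, and control replicate 2 was the highest alone for 61.5%, against 33.2%. Many members have long transcripts, and 16 have at least 10 kb of exon. All 16 were below 0, with a median log2 fold change of -0.13. Among the 1417 genes tested of that length, 60.9% were below 0 and the median was -0.06, whereas members under 10 kb had a median of -0.026. The log2 difference of mutant replicate 2 minus mutant replicate 1 had a median of -0.154 for the 16 long members and of -0.101 for all genes tested of that length. Of the 8 members with an exon GC content of at least 55%, all were below 0, against 54.6% of the 3371 genes tested of that content. The medians were -0.265 and -0.0265. With at least 5 kb of exon as well, 7 members had a median of -0.268, against -0.0807 for 854 genes tested, of which 61.7% were below 0. In the 8 members of high GC content, control replicate 2 exceeded control replicate 1 by a median of 0.28, against 0.14 for all genes tested of that content. Over the 39 members, which share the same 4 libraries, the fold change had a Pearson r of -0.437 with log10 exon length and -0.427 with GC content, whereas over 16645 genes tested the values were -0.0254 and -0.0175. The part of length and GC content in the members' values was not tested.

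**Figure D4:**
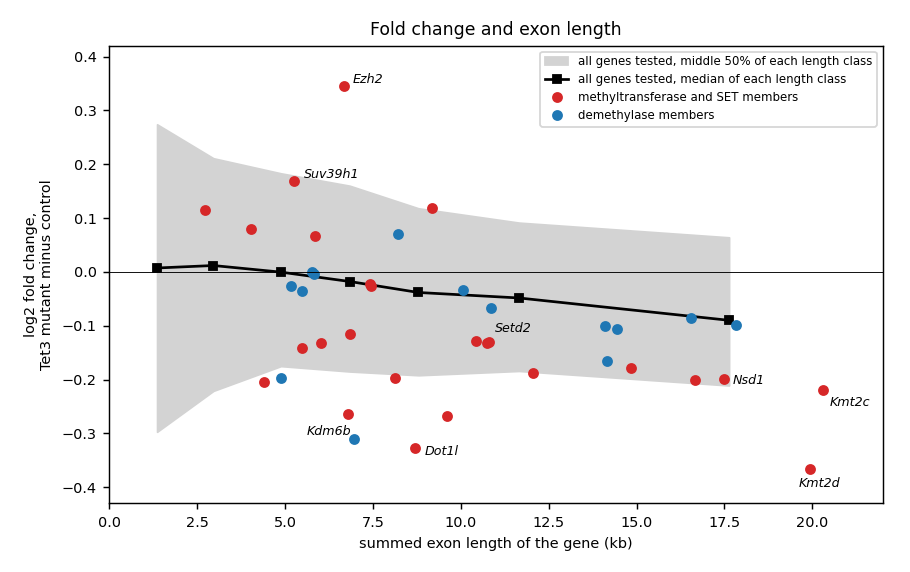
Log2 fold change, Tet3 mutant minus control, against summed exon length in kb. Points are the 39 members (red, methyltransferase and SET-domain genes, blue, demethylases), squares the median and grey the middle 50% of all genes tested in 7 length classes. The class medians go from 0.0072 under 2 kb to -0.09 from 15 kb, and all 16 members of at least 10 kb lie below 0.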

How the data were processed

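Libraries of sorted lung smooth muscle cells, 2 control and 2 Tet3 mutant, took their groups from the genotype labels. The authors trimmed reads with Trimmomatic 0.36, aligned them with STAR 2.6.0c to mm10 (GRCm38), counted unique reads over exons with featureCounts (Subread 1.6.0) and scaled counts with DESeq2. Whether strand was used in counting is not stated in the sources used here. What the authors deposited is a score, a normalized count rounded to whole numbers, so count models were not used. Genes with a mean of at least 10 were compared on log2(value + 1) with limma 3.58.1 in R 4.3.3 (mean-variance trend, Benjamini-Hochberg over all genes tested, threshold 0.05), a fit checked on simulated data. The log2(value + 1) scale understates changes of low genes. With 2 against 2 libraries an exact permutation test cannot go below 0.333. P-values measure the spread between these 4 libraries. Depth was estimated from gaps among low scaled values. Exon length, GC content and overlap are from GENCODE M21. Members, role groups, pathway lists and markers were chosen with earlier results of these data known. Named with values were the H3K36 writers, members at an unadjusted p under 0.05, the 3 most positive and 3 most negative members, and further genes listed by role. Alternatives were a pseudocount of 0.5 or 8, a minimum mean of 1 or 50, equal totals, quantile normalization, no trend, the replicate number as a block and each library left out.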

Additional observations from a re-analysis of the deposited data

How the results depend on the processing

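With equal totals the member median was -0.066 against 0.042 for all genes tested, with quantile normalization -0.035 against 0.017, and with 1 library left out -0.147 to -0.050. Members at an unadjusted p under 0.05 numbered 0 with equal totals, quantile normalization or no trend, and 0 to 6 with 1 library left out (273 to 3366 of all genes tested). No member passed the adjusted threshold under any of these settings, and 1 gene of all tested did without the trend. Groups did not overlap in 23 to 35 members and 10622 to 13114 genes with 1 library left out, where a group of 1 overlaps less easily. A lone library was assumed to vary like the other group. Signs turned for 11 of 39 members when a library was left out. Equal totals raises all genes together, so members just below 0 turn by construction and the gap to all genes stays at -0.108, and *Kdm1b* turned there only. With equal totals the values that turned were *Prdm2* 0.0254, *Ezh1* 0.022, *Kdm1a* 0.0222, *Kdm1b* 0.0132, *Kdm4c* 0.045 and *Kdm7a* 0.0152, and with quantile normalization *Prdm2* 0.0379, *Ezh1* 0.0289, *Kdm1a* 0.0111, *Kdm4c* 0.0324 and *Kdm7a* 0.025. With 1 library left out in turn the values that changed sign ran as follows, members first and then 3 further genes, *Suv39h2* -0.483 to 0.0735, *Setdb2* -0.0996 to 0.257, *Prdm2* -0.0795 to 0.0335, *Setd3* -0.275 to 0.0108, *Smyd2* -0.096 to 0.324, *Smyd5* -0.0322 to 0.164, *Kdm1a* -0.0932 to 0.0408, *Kdm2b* -0.205 to 0.0726, *Kdm4a* -0.067 to 0.0671, *Kdm4c* -0.0721 to 0.0653, *Kdm7a* -0.0929 to 0.0265, *Nsd2* -0.27 to 0.111, *Kdm5c* -0.0203 to 0.229 and *Kdm6a* -0.0658 to 0.512. The cause was not tested. Under all settings run, 26 members and *Tet3* kept their sign.

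Same-numbered libraries deviated together by a Pearson r of 0.13 over 16659 genes, with 2 pairs to judge from, which does not establish a pairing. With the replicate block 0 members and 1637 genes had an unadjusted p under 0.05 in limma, and 0 genes passed the adjusted threshold. Pseudocounts and minimum means changed no call. The part of depth in the members' intervals was not tested.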
